A study of Homo sapiens with 12 samples.

Results

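The 10 genes described here encode cytokines of the interleukin-6 (IL6) family, their receptor chains and the signalling proteins beneath them, as measured by RNA sequencing in LX-2 cells. LX-2 is an established human hepatic stellate cell line, immortalised and used as a culture model of the cells that lay down scar in liver. The genes were taken by name from the 58735 genes of the count file. They are 4 cytokines (IL6, LIF, IL11 and CLCF1), 4 receptor chains (IL6ST, IL6R, LIFR and OSMR), the transcription factor STAT3 and its inhibitor SOCS3. The set was chosen by earlier results of these same libraries, so every fold change of its members is a description, printed without a p-value, and the word "called" says only that the fit over all genes put the gene past its threshold. The 12 libraries form 4 groups of 3. SiNAT10_TGFB cells were transfected with siRNA against NAT10, an RNA cytidine acetyltransferase, and given TGF-β1 at 5 ng/ml for 24 h from 48 h after transfection. SiNAT10 cells received the siRNA alone, TGFB cells received TGF-β1 alone at the same dose and time, and con cells received neither. The labels do not say how long after transfection the SiNAT10 cells were harvested. Time after transfection may thus differ between the siRNA groups, and its part in their comparison and in the interaction was not tested. All groups are LX-2 of wild-type genotype per the labels, and no group is labelled as having a control siRNA or a mock transfection. Transfection and knockdown of NAT10 therefore cannot be told apart in any siRNA comparison. The labels number the libraries of a group as biological replicates without naming separate cultures, so a p-value here measures the spread between these samples, which may be technical.

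The IL6 family of cytokines signals through a shared receptor chain, gp130, encoded by IL6ST. Each ligand reaches gp130 by its own route: IL6 through the IL6 receptor alpha chain, IL11 through the IL11 receptor alpha chain, LIF through a pairing of gp130 with LIFR, oncostatin M through OSMR or LIFR, and CLCF1 through the ciliary neurotrophic factor receptor. The assembled receptors activate JAK kinases, which phosphorylate STAT3, and STAT3 switches on SOCS3, a protein that binds gp130 and JAK and shuts the signal down. In liver this family drives the acute phase response of hepatocytes, and IL6 and IL11 are both made by activated stellate cells and fibroblasts.

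Total counts ran from 25877008 to 35132582 per library, with none of the siRNA libraries above 28311434 and none of the others below 29797990. Levels are CPM, counts scaled to library size, after TMM scaling, given as mean ± SD with n = 3. NAT10 itself averaged 18.6 ± 2.51 CPM in SiNAT10_TGFB against 67.0 ± 1.19 in TGFB, and 18.6 ± 0.817 in SiNAT10 against 67.2 ± 3.75 in con. Of 12 stellate or mesenchymal marker genes, 8 passed the filter on low counts; LRAT, a defining enzyme of vitamin A storage in stellate cells, and DCN, decorin, were at 0 in all 12 libraries. The summed level of that list ran from 2184 to 2472 CPM in SiNAT10_TGFB, 1762 to 1844 in SiNAT10, 8944 to 9560.3 in TGFB and 4370.2 to 4593 in con. COL1A1 and VIM carried most of that sum, and RELN, a stellate marker at 12.4 CPM in SiNAT10 against 2.51 in con, went the other way. None of 8 hepatocyte markers passed the filter, and their sum reached at most 0.883 CPM in any library. The 8 macrophage or leukocyte markers summed to 9.02 to 9.26 CPM in SiNAT10_TGFB, 8.09 to 8.30 in SiNAT10, 7.80 to 9.08 in TGFB and 5.53 to 6.22 in con, with MARCO at 0 in every library; 3 of the 8 passed the filter. Of 7 endothelial markers 4 passed, with sums from 7.99 to 16.4 CPM over all libraries, and of 6 epithelial markers 3 passed, with sums from 66.5 to 73.9 CPM in SiNAT10 and from 41.1 to 47.5 CPM in the other groups. SOX9 alone gave 66.2 CPM of the epithelial sum in SiNAT10, while KRT7 was highest in SiNAT10_TGFB, at 5.45 CPM. TEK carried most of the endothelial sums, at 12.3 CPM in SiNAT10_TGFB, 7.31 in SiNAT10, 13.4 in TGFB and 10.2 in con. Of the macrophage or leukocyte markers, CSF1R was highest in TGFB, at 6.08 CPM, while CD14 and ITGAM were lowest there, at 1.56 and 0.354 CPM. The part of these shifts in the results below was not tested. In bulk RNA, fewer cells that express a gene and less of its RNA per cell cannot be told apart.

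The promoters of IL6 and IL11 are shown because they are the genes with promoter entries among the 3 members whose TGF-β1 effect was called as different with siRNA. Of the 10 genes, 8 had promoter entries in RefSeq (11 windows, GRCh38.p14), and the 250 bases before each RefSeq start were searched on both strands for AP-1 (TGANTCA), SMAD (CAGAC), STAT (TTCNNNGAA), C/EBP (TTGCNNAA) and NF-kB letters. Capitals mark the matches. LIF and CLCF1 had no entry. The IL6 stretch is chr7:22726950-22727146 on the plus strand, intronic to a longer transcript that starts further upstream and with the 53 bases nearest the RefSeq start left out, and the IL11 stretch is chr19:55370464-55370713 on the minus strand, directly upstream of the gene.
IL6: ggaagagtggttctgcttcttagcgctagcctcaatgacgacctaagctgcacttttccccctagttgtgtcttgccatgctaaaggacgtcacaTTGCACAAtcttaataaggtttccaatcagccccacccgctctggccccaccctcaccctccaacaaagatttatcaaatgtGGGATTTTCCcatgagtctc
IL11: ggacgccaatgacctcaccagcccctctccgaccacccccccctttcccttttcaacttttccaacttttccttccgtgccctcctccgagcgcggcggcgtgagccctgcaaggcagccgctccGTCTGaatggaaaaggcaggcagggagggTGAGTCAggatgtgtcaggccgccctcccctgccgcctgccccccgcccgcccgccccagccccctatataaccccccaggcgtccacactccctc
In the IL6 stretch a C/EBP match, TTGCACAA, begins 155 bases before the RefSeq start and an NF-kB match, GGGATTTTCC, begins 73 bases before it. In the IL11 stretch a SMAD match, GTCTG on the strand shown, begins 125 bases before the start and an AP-1 match, TGAGTCA, begins 96 bases before it. None of the matches shown overlaps another. The unprinted IL6 bases held a SMAD match that begins 11 bases before the start. Among 35116 RefSeq promoter windows of the same length, 6.57% held the AP-1 letters, 38% SMAD, 6.57% STAT, 9.05% C/EBP and 5.21% NF-kB. Elsewhere among the members, STAT letters occurred in windows of LIFR alone and NF-kB letters in none.

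All 10 genes passed the filter on low counts, as did 18560 genes in all, and calls were made at an adjusted p under 0.05 over those genes. In TGFB against con, 3 members were called higher and 2 lower (median log2 fold change -0.01), where 11.9% of all genes tested were higher and 12.2% lower (median -0.01). In SiNAT10_TGFB against SiNAT10, 3 members were called higher and 2 lower (median 0.02), where 5.92% of all genes were higher and 5.15% lower (median 0.00). In SiNAT10 against con, 7 were called higher and 1 lower (median 0.36), where 26.4% of all genes were higher and 26.4% lower (median 0.02). In SiNAT10_TGFB against TGFB, 5 were called higher and 3 lower (median 0.28), where 26.3% were higher and 26.8% lower (median 0.01). For the interaction, which is the TGF-β1 effect with siRNA minus that without it, 0 members were called higher and 3 lower (median 0.00), where 1.94% of all genes were higher and 1.91% lower (median 0.00). Fold changes are relative to TMM scaling. Scaling to library size alone moved the median over all genes to -0.14 in TGFB against con and 0.14 in SiNAT10_TGFB against TGFB. The share of calls that were higher was then 23.4% in place of 49.5% in TGFB against con, 61.3% in place of 49.6% in SiNAT10_TGFB against TGFB, 36.7% in place of 53.5% in SiNAT10_TGFB against SiNAT10 and 68.9% in place of 50.4% for the interaction. With that scaling 8 members were called in TGFB against con, in place of 5, while calls over all 18560 genes numbered 6033 in place of 4472. The members were chosen with these contrasts known, so the counts describe the set and nothing is read from them. The comparisons share groups with each other and are given side by side only.

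**Figure D1:**
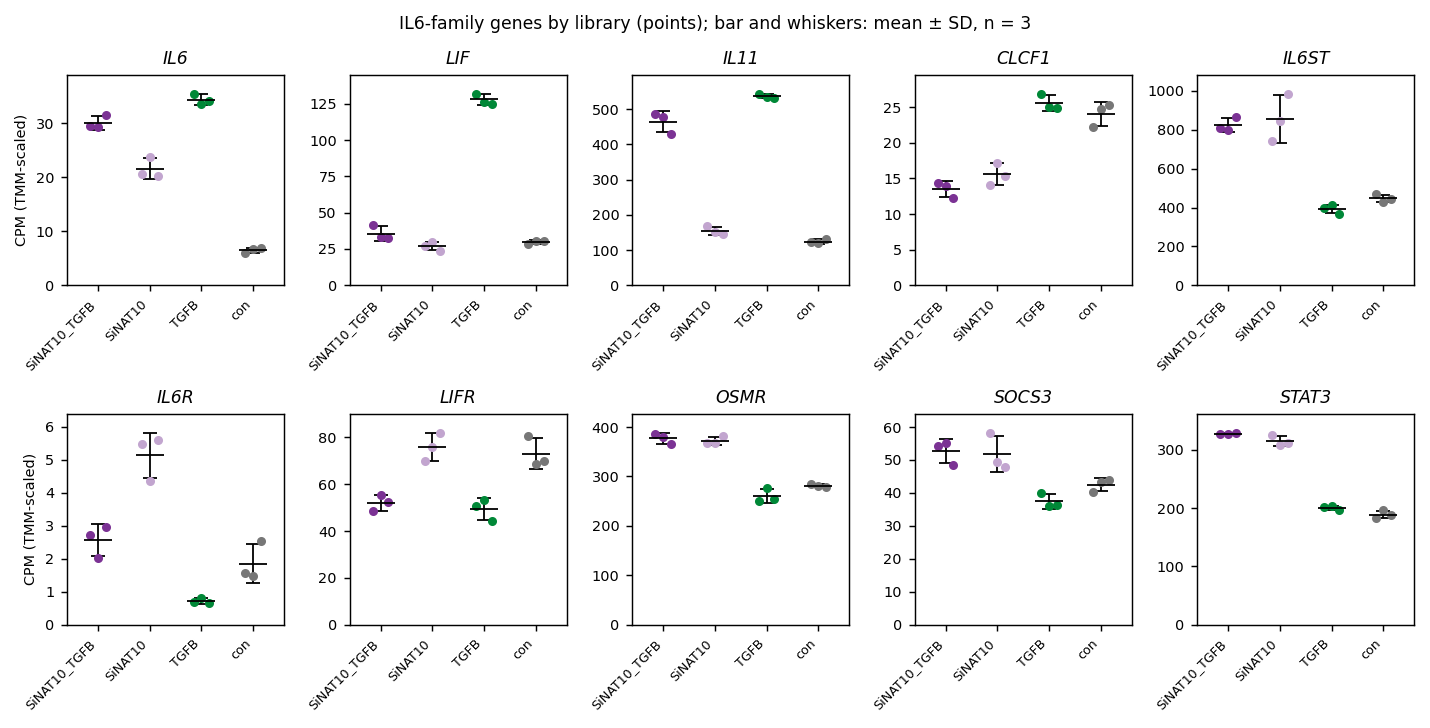
CPM after TMM scaling (linear axis from 0) of each of the 10 genes in the 3 libraries of SiNAT10_TGFB, SiNAT10, TGFB and con; points are libraries, the bar and whiskers are mean ± SD. LIF stands high in TGFB alone, IL11 in both TGF-β1 groups, IL6 in every group but con, and IL6ST, OSMR and STAT3 in both siRNA groups.

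IL6 (ENSG00000136244; hg38 chromosome 7, 22725884 to 22732002), the founding cytokine of the family, had its lowest level in untreated cells and was several-fold higher under each treatment, alone or combined. It stood at 29.5, 29.3 and 31.6 CPM in the SiNAT10_TGFB libraries, 20.7, 23.7 and 20.2 in SiNAT10, 35.5, 33.6 and 34.1 in TGFB, and 5.98, 6.70 and 6.84 in con. No group overlapped another, and the order by level was TGFB, SiNAT10_TGFB, SiNAT10 and con. TGF-β1 alone came with a level 5.29-fold that of con, a log2 fold change of 2.40 (SE 0.0974), and the siRNA alone with a level 3.32-fold that of con, a log2 fold change of 1.73 (SE 0.0984). Both were called. In cells with the siRNA, TGF-β1 came with a log2 fold change of 0.48 (SE 0.0892), also called. Under TGF-β1 the siRNA gave -0.19 (SE 0.0871), which was not called, although every SiNAT10_TGFB library lay below every TGFB library. That value was called by voom (-0.19), by limma on log2(FPKM + 1) (-0.18), in a fit of those 2 groups alone (-0.19) and with the trend on GC content removed (-0.34). Of the exon bases of IL6, 20.7% lie under genes on the opposite strand, and no source used here says which strand was counted. The more counted of these partners, AC073072.1, had 19 to 51 counts a library.

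LIF (ENSG00000128342; chromosome 22, 30240447 to 30246851), leukemia inhibitory factor, was high in TGFB cells and close to the untreated level wherever the siRNA was present. Its levels were 41.4, 33.0 and 32.3 CPM in SiNAT10_TGFB, 27.3, 29.6 and 23.8 in SiNAT10, 132, 126 and 125 in TGFB, and 28.2, 30.8 and 30.4 in con. The TGFB libraries stood apart from the other 9, SiNAT10_TGFB lay just above con, and SiNAT10 and con overlapped. TGF-β1 alone came with a log2 fold change of 2.10 (SE 0.0907), a 4.28-fold level, which was called. The siRNA alone gave -0.15 (SE 0.0928), which was not called. Under TGF-β1 the siRNA came with a log2 fold change of -1.84 (SE 0.0901), which was called, and its level fell by 72.1% relative to TGFB cells. In cells with the siRNA, TGF-β1 gave a log2 fold change of 0.40 (SE 0.0927). This call was lost without SiNAT10_TGFB replicate 1, where the value was 0.28. AC004264.1, which with LIF-AS1 covers 6.73% of the exon bases of LIF from the opposite strand, had 10 to 17 counts in SiNAT10_TGFB, 7 to 14 in SiNAT10, 54 to 68 in TGFB and 9 to 25 in con.

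IL11 (ENSG00000095752; chromosome 19, 55364389 to 55370463), a cytokine that stellate cells and fibroblasts make under TGF-β1, was several-fold higher with TGF-β1 whether or not the siRNA was present. It stood at 487, 478 and 430.3 CPM in SiNAT10_TGFB, 167, 151 and 145 in SiNAT10, 544, 535 and 531 in TGFB, and 123, 119 and 132 in con. The TGF-β1 groups lay far above the others, and no group overlapped another. TGF-β1 came with a log2 fold change of 1.59 (SE 0.0638) in cells with the siRNA and 2.11 (SE 0.0648) in cells without it, 3.01-fold and 4.31-fold, both called. The siRNA alone gave 0.31 (SE 0.0632), called, and under TGF-β1 it gave -0.21 (SE 0.0618), called as lower. Neither siRNA value held its size or sign under every setting. With the GC trend removed they became 0.71 and 0.19, so that the sign of the value under TGF-β1 turned and was called as higher. Scaling to library size also ended the call under TGF-β1 (-0.08), as did omission of SiNAT10_TGFB replicate 3 (-0.15).

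CLCF1 (ENSG00000175505; chromosome 11, 67364168 to 67374177), cardiotrophin-like cytokine factor 1, was lower in both siRNA groups. It had 14.4, 13.9 and 12.3 CPM in SiNAT10_TGFB, 14.1, 17.2 and 15.4 in SiNAT10, 26.9, 25.0 and 24.9 in TGFB, and 22.2, 24.8 and 25.3 in con. The siRNA groups overlapped each other, as did TGFB and con, and the siRNA libraries all lay below the rest. Log2 fold changes with the siRNA were -0.92 (SE 0.10) under TGF-β1 and -0.63 (SE 0.0992) without it, both called. These were -0.60 and -0.31 with the GC trend removed, still called. TGF-β1 gave -0.20 (SE 0.103) in cells with the siRNA and 0.09 (SE 0.0963) in cells without it, neither called.

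The fold changes with the siRNA ran with the GC content of the transcripts. Across 13039 genes, the Spearman correlation of log2 fold change with transcript GC was -0.36 for SiNAT10_TGFB against TGFB and -0.33 for SiNAT10 against con, where it was 0.08 for SiNAT10_TGFB against SiNAT10 and 0.12 for TGFB against con; genes are not independent replicates. The members span much of that range, from 37.6% GC in IL6ST and 39.3% in LIFR to 60.3% in IL11 and 61.9% in SOCS3. Removing the trend moved the siRNA values of LIF, IL11, CLCF1, IL6R and SOCS3, at 55.4% GC or more, upwards, and those of the other members, at 50.9% or less, downwards. Whether the trend lies in the libraries or in the cells was not tested. With the trend removed the interaction values of the 3 members called for it were -1.91 (IL6), -1.69 (LIF) and -0.51 (IL11), close to those without this step, while the calls of the interaction over all genes numbered 1441 in place of 714.

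Per length, in FPKM (fragments scaled by gene length and library size), IL11 was the most abundant of the 4 cytokine transcripts in every group. The 4 genes summed to 205 ± 12.3 FPKM in SiNAT10_TGFB, 82.9 ± 4.44 in SiNAT10, 262 ± 3.52 in TGFB and 69.2 ± 3.10 in con. IL11 made up 85.1 ± 0.703% of that sum in SiNAT10_TGFB, 69.7 ± 2.56% in SiNAT10, 76.5 ± 0.394% in TGFB and 67.1 ± 1.55% in con. IL6 took its highest share in SiNAT10, 12.6 ± 1.04%, against 4.53 ± 0.227% in con, and had 7.15 ± 0.751% in SiNAT10_TGFB against 6.33 ± 0.0931% in TGFB. LIF took 4.38 ± 0.448% in SiNAT10_TGFB against 12.2 ± 0.175% in TGFB, and 8.17 ± 0.625% in SiNAT10 against 10.8 ± 0.509% in con. CLCF1 took 3.34 ± 0.0757% in SiNAT10_TGFB against 4.93 ± 0.139% in TGFB, and 9.53 ± 1.14% in SiNAT10 against 17.6 ± 0.874% in con, where it ranked next after IL11. In every SiNAT10_TGFB library IL11 took a larger share of the cytokine transcripts than in any TGFB library, while the mean summed level was lower.

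**Figure D2:**
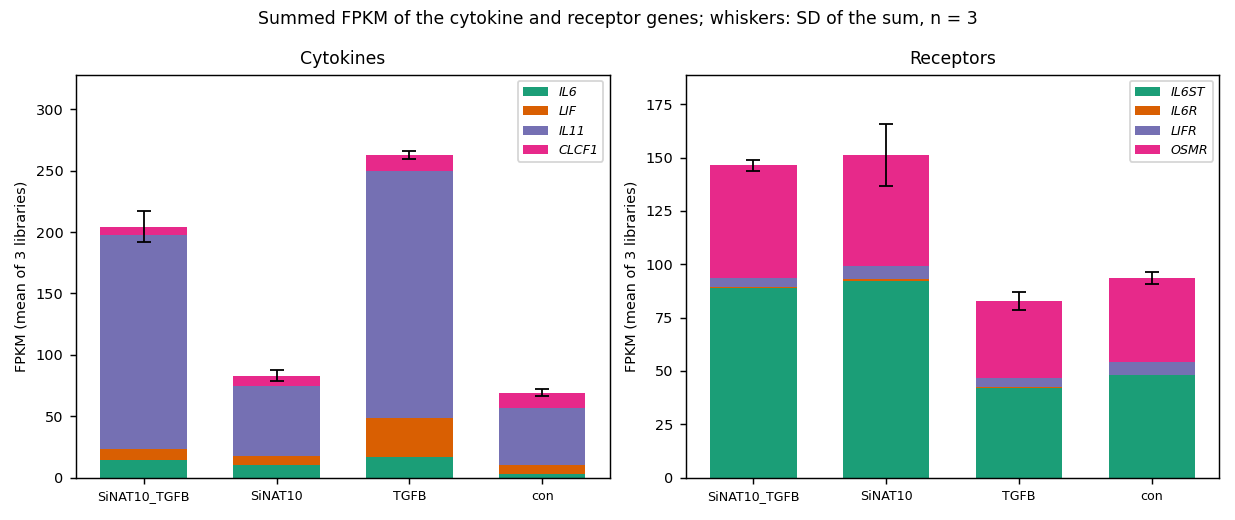
Mean FPKM (linear axis from 0, n = 3) of the 4 cytokine genes (left) and the 4 receptor genes (right), stacked by group in the order SiNAT10_TGFB, SiNAT10, TGFB and con; whiskers are the SD of the sum. IL11 fills most of each cytokine bar, from 67.1% in con to 85.1% in SiNAT10_TGFB, and the receptor sum is 146 and 151 FPKM in SiNAT10_TGFB and SiNAT10 against 82.7 and 93.5 in TGFB and con.

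IL6ST (ENSG00000134352; chromosome 5, 55935095 to 55994993), which encodes the shared signalling chain gp130, was higher in cells with the siRNA. It stood at 808, 800.1 and 868 CPM in SiNAT10_TGFB, 741, 844 and 986 in SiNAT10, 399, 411 and 369 in TGFB, and 468, 431 and 442 in con. Every siRNA library lay above every other library, and the siRNA groups overlapped. The siRNA came with a log2 fold change of 1.07 (SE 0.0749) under TGF-β1, a 2.10-fold level, and 0.94 (SE 0.0746) without it, a 1.92-fold level, both called; with the GC trend removed these were 0.89 and 0.67. TGF-β1 gave -0.05 (SE 0.0739) in cells with the siRNA and -0.19 (SE 0.0742) in cells without it, neither called, though the TGFB libraries lay below the con libraries. The second of these was called with scaling to library size (-0.32), with no filter on low counts (-0.20), with the GC trend removed (-0.18), without SiNAT10 replicate 1 or 3 (-0.19 each) and in a fit of those 2 groups alone (-0.18).

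IL6R (ENSG00000160712; chromosome 1, 154405193 to 154469450), the alpha chain that binds IL6, was the scarcest of the 10 transcripts and moved up with the siRNA and down with TGF-β1. It had 78, 53 and 82 counts in SiNAT10_TGFB (2.71, 2.03 and 2.97 CPM), 159, 122 and 156 in SiNAT10 (5.46, 4.36 and 5.58 CPM), 22, 26 and 19 in TGFB (0.679, 0.808 and 0.641 CPM), and 54, 44 and 81 in con (1.57, 1.47 and 2.53 CPM). SiNAT10 was highest and TGFB lowest without overlap, and SiNAT10_TGFB and con overlapped between them. Log2 fold changes with the siRNA were 1.85 (SE 0.270) under TGF-β1 and 1.47 (SE 0.234) without it. TGF-β1 came with -0.99 (SE 0.230) in cells with the siRNA and -1.38 (SE 0.273) in cells without it. All 4 values were called. On the log2(FPKM + 1) scale, which understates changes of scarce genes, the TGFB against con value was -0.21, still called.

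LIFR (ENSG00000113594; chromosome 5, 38474963 to 38608354), the chain that pairs with gp130 for LIF, was lower in both TGF-β1 groups. It stood at 48.7, 55.5 and 52.2 CPM in SiNAT10_TGFB, 69.9, 75.8 and 81.9 in SiNAT10, 50.9, 53.2 and 44.3 in TGFB, and 80.6, 68.8 and 70.0 in con. SiNAT10_TGFB and TGFB overlapped, SiNAT10 and con overlapped, and no library of the first pair reached the second pair. TGF-β1 came with a log2 fold change of -0.54 (SE 0.0844) in cells with the siRNA and -0.56 (SE 0.0840) in cells without it, both called. The siRNA gave 0.08 (SE 0.0850) under TGF-β1 and 0.05 (SE 0.0831) without it, neither called. They became -0.11, not called, and -0.17, called as lower, with the GC trend removed. LIFR-AS1 covers 5.3% of the exon bases of LIFR from the opposite strand.

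OSMR (ENSG00000145623; chromosome 5, 38845858 to 38945596), the oncostatin M receptor chain, was moderately higher with the siRNA, at 386, 379 and 365 CPM in SiNAT10_TGFB, 368, 367 and 381 in SiNAT10, 251, 277 and 254 in TGFB, and 284, 281 and 279 in con. The siRNA groups overlapped each other and lay above the rest, and TGFB lay just below con. Its siRNA log2 fold changes were 0.53 (SE 0.0534) under TGF-β1 and 0.40 (SE 0.0533) without it, both called; with the GC trend removed they were 0.37 and 0.24, still called. TGF-β1 gave 0.02 (SE 0.0532) in cells with the siRNA and -0.11 (SE 0.0533) in cells without it. Neither was called, and the second was called as lower with scaling to library size (-0.25). RICTOR, which covers 3.19% of the exon bases of OSMR from the opposite strand, had 4413 to 5110 counts in SiNAT10_TGFB, 4967 to 6277 in SiNAT10, 3240 to 3824 in TGFB and 3308 to 4195 in con, so its counts were also higher with the siRNA; its part in the OSMR values was not tested.

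Per length, gp130 transcripts outnumbered those of the ligand-binding IL6R by 94.3 times or more in every library, and the ratio was highest in TGFB and lowest in SiNAT10. The ratio of IL6ST to IL6R in FPKM was 228 ± 39.3 in SiNAT10_TGFB, 117 ± 20.7 in SiNAT10, 387 ± 29.2 in TGFB and 178 ± 48.7 in con. The ratio of IL6ST to LIFR was 20.3 ± 1.62 in SiNAT10_TGFB, 14.4 ± 0.935 in SiNAT10, 10.2 ± 0.420 in TGFB and 7.83 ± 0.358 in con, with no overlap between groups. The ratio of IL6ST to OSMR was 1.69 ± 0.126 in SiNAT10_TGFB, 1.78 ± 0.223 in SiNAT10, 1.16 ± 0.0531 in TGFB and 1.23 ± 0.0435 in con. Together the 4 chains summed to 146 ± 2.64 FPKM in SiNAT10_TGFB and 151 ± 14.6 in SiNAT10, against 82.7 ± 4.10 in TGFB and 93.5 ± 2.91 in con. IL6ST alone made up 60.8 ± 1.64% of that sum in SiNAT10_TGFB, 60.8 ± 2.85% in SiNAT10, 51.0 ± 0.959% in TGFB and 51.3 ± 0.629% in con.

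STAT3 (ENSG00000168610; chromosome 17, 42313324 to 42388568), the transcription factor that carries the gp130 signal to the nucleus, was higher with the siRNA by a similar factor in both settings. It had 328, 327 and 329 CPM in SiNAT10_TGFB, 325, 309 and 311 in SiNAT10, 202, 203 and 197 in TGFB, and 183, 196 and 188 in con. The siRNA libraries all lay at 309 CPM or more and the others at 203 or less. The siRNA came with a log2 fold change of 0.71 (SE 0.0522) under TGF-β1 and 0.74 (SE 0.0522) without it, 1.63-fold and 1.67-fold, both called. TGF-β1 gave 0.06 (SE 0.0518) in cells with the siRNA and 0.09 (SE 0.0521) in cells without it, neither called. These are transcript levels; phosphorylation of STAT3 was not measured.

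SOCS3 (ENSG00000184557; chromosome 17, 78356778 to 78360077), the feedback inhibitor that STAT3 induces, was higher in both siRNA groups and not in TGFB. It stood at 54.3, 55.1 and 48.4 CPM in SiNAT10_TGFB, 58.2, 49.3 and 48.0 in SiNAT10, 40.0, 35.9 and 36.3 in TGFB, and 40.3, 43.4 and 43.8 in con. The siRNA libraries lay above all others, and TGFB lay below con without overlap. The siRNA came with a log2 fold change of 0.49 (SE 0.0836) under TGF-β1 and 0.29 (SE 0.0830) without it, both called. The second was lost without SiNAT10 replicate 1 (0.19). The values were larger, 0.95 and 0.73, with the GC trend removed. TGF-β1 gave 0.02 (SE 0.0828) in cells with the siRNA and -0.18 (SE 0.0836) in cells without it, neither called, while IL6, LIF and IL11 were at their highest in TGFB. The TGFB value was called as lower with scaling to library size (-0.32) and with the GC trend removed (-0.23).

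**Figure D3:**
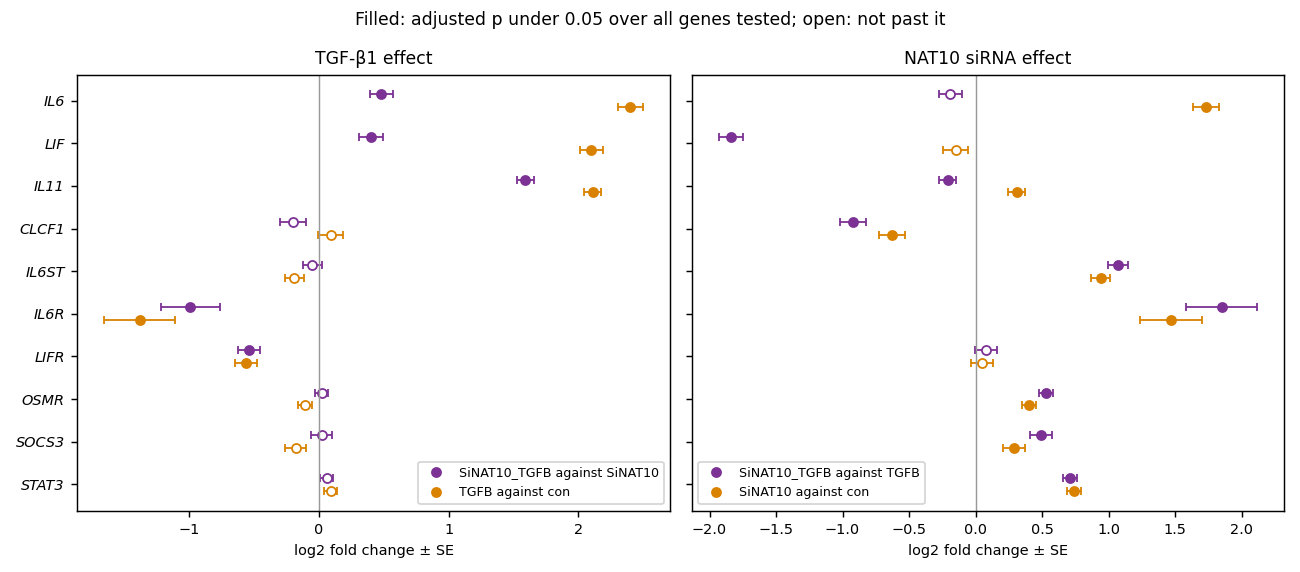
Log2 fold change ± SE of the 10 genes for TGF-β1 (left, with and without siRNA) and for the siRNA (right, with and without TGF-β1); filled points were called over all genes tested and open points were not. TGF-β1 values of IL6 and LIF lie near 0.48 and 0.40 with siRNA and at 2.40 and 2.10 without it, while those of IL6R and LIFR lie close together.

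The interaction sets the TGF-β1 effect in cells with siRNA against the effect in cells without it. It was -1.92 for IL6 (SE 0.131), -1.70 for LIF (SE 0.129) and -0.52 for IL11 (SE 0.0884) on the log2 scale, the 3 members called. The 3 values arose from different levels. IL6 was already high in SiNAT10 cells and ended near the TGFB level in SiNAT10_TGFB cells, at 30.1 ± 1.31 CPM against 34.4 ± 0.984 CPM. LIF was at the con level in SiNAT10 cells and stayed low under TGF-β1, at 35.6 ± 5.03 CPM against 128 ± 3.89 CPM in TGFB. IL11 reached 465 ± 30.3 CPM in SiNAT10_TGFB against 537 ± 6.21 CPM in TGFB. The interaction was not called for CLCF1 (-0.29, SE 0.141), IL6R (0.39, SE 0.356), LIFR (0.02, SE 0.119), OSMR (0.13, SE 0.0753), SOCS3 (0.21, SE 0.118) or STAT3 (-0.03, SE 0.0735). For IL6ST it was 0.13 (SE 0.105), not called, and 0.22 with the GC trend removed, called.

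Over the 12 libraries, whose levels follow 4 group means, the most alike pairs of members were receptor and signalling genes. Pearson's r of log2 CPM was 0.98 between IL6ST and OSMR, 0.95 between IL6ST and STAT3, 0.95 between OSMR and STAT3 and 0.89 between OSMR and SOCS3. CLCF1 ran opposite to them, with r = -0.95 to STAT3 and -0.93 to IL6ST. IL6 and IL11 had r = 0.83, LIF and IL11 0.73, and IL6 and LIF 0.54. LIFR ran opposite to IL11 (r = -0.93). Of genes with at least 50 counts on average, the 3 most like IL6 by this measure were GADD45B (r = 0.989), SPARC (0.988) and IER3 (0.982). The 3 most like LIF were CTGF (0.985), AC020916.1 (0.981) and LOX (0.979), and DSE (0.991) and MSN (0.991) were among those most like IL11. Those most like CLCF1 were RAD54L (0.987), CLK2 (0.985) and ZNRF3 (0.983). All of these are descriptions over 12 libraries in 4 groups.

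The rest of the pathway was followed in 6 lists of 72 genes, compiled from general knowledge with earlier results of these data known; 58 of the 72 passed the filter. Among those 58, TGF-β1 came with 10 higher and 5 lower genes in cells with siRNA, where 5.92% of all genes were higher and 5.15% lower, and 10 higher and 14 lower in cells without it, where 11.9% and 12.2% were. With the siRNA there were 28 higher and 12 lower under TGF-β1, where 26.3% of all genes were higher and 26.8% lower, and 30 higher and 12 lower without it, where 26.4% of all genes were called in each direction. The median log2 fold change over the 58 was 0.30 in each siRNA comparison, against 0.01 and 0.02 over all genes. The 58 include OSM and IL31, which passed the filter only through libraries with siRNA. Since the lists were also compiled with results known, nothing is read from these counts and medians. The 14 genes that did not pass were FGA, FGB, FGG, SAA1, SAA2, CRP, HP, SERPINA3, A2M, HAMP and LRG1, products of hepatocytes on the STAT3 target list, and IL27, CNTFR and JAK3. Of these, CNTFR encodes the receptor chain through which CLCF1 acts.

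Of the 7 other ligands 6 passed the filter. OSM, oncostatin M, had 14, 8 and 13 counts in SiNAT10_TGFB against 0, 6 and 4 in TGFB, and 6, 30 and 22 in SiNAT10 against 2, 0 and 0 in con. Since no con library had more than 2 counts of OSM, no fold is given for it in SiNAT10 against con. IL31 had 14, 10 and 10 counts in SiNAT10_TGFB against 0, 0 and 0 in TGFB, at least 4.29-fold over a floor of 3 counts per library, and 8, 0 and 1 counts in SiNAT10 against 0, 0 and 0 in con, for which no fold is given. OSM and IL31 passed the filter only through libraries with siRNA, so no p or interval is given for them. Nothing is read from their place among the genes called. EBI3, a subunit of IL27, had 35, 36 and 71 counts in SiNAT10 against 10, 10 and 14 in con (log2 fold change 2.23, SE 0.417, adjusted p = 9.20e-05).

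Among the other receptors, IL11RA, the alpha chain that binds IL11, fell with the siRNA while IL11 itself stayed abundant. IL11RA averaged 2.18 ± 0.276 CPM in SiNAT10_TGFB against 6.29 ± 1.14 in TGFB (log2 fold change -1.53, SE 0.186, adjusted p = 2.92e-07), and 2.26 ± 0.323 in SiNAT10 against 5.47 ± 0.254 in con, -1.28 (SE 0.186, adjusted p = 3.93e-06). Its groups did not overlap in either comparison, and 17.4% of its exon bases overlap same-strand genes, so its counts are less certain. IL27RA averaged 7.72 ± 0.142 CPM in SiNAT10_TGFB against 16.1 ± 0.0866 in TGFB, and 6.65 ± 0.509 in SiNAT10 against 16.1 ± 1.17 in con, with log2 fold changes of -1.06 (adjusted p = 1.88e-08) and -1.28 (adjusted p = 1.17e-09). IL31RA, a receptor chain that pairs with OSMR to bind IL31, fell with TGF-β1 alone to 15.4 ± 0.424 CPM, against 29.6 ± 0.731 in con (-0.94, SE 0.0878, adjusted p = 1.47e-08). With siRNA it had 25.1 ± 1.84 CPM in SiNAT10_TGFB against 30.7 ± 2.26 in SiNAT10, and the interaction was 0.65 (SE 0.123, adjusted p = 0.00216).

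Of the 10 kinases and STATs 9 passed, with 4 higher and 3 lower in SiNAT10_TGFB against TGFB and 3 higher and 4 lower in SiNAT10 against con. Over all genes 26.3% were higher and 26.8% lower in the comparison under TGF-β1 and 26.4% each way in the other, and nothing is read from counts this close to those shares in so few genes. JAK1 and TYK2, kinases that bind gp130, went opposite ways. JAK1 averaged 459 ± 24.2 CPM in SiNAT10_TGFB against 296 ± 7.73 in TGFB and 351 ± 4.03 in SiNAT10 against 268 ± 4.67 in con, with log2 fold changes of 0.63 (SE 0.0528, adjusted p = 6.74e-10) and 0.39 (SE 0.0528, adjusted p = 1.56e-06). TYK2 averaged 77.4 ± 4.38 CPM in SiNAT10_TGFB against 145 ± 3.31 in TGFB and 76.6 ± 7.93 in SiNAT10 against 136 ± 6.42 in con, with -0.90 (SE 0.0715, adjusted p = 2.67e-10) and -0.82 (SE 0.0714, adjusted p = 1.38e-09). On the log2 scale STAT5B fell by 0.52 with the siRNA under TGF-β1 (adjusted p = 3.24e-07) and by 0.30 without it (adjusted p = 0.000398). With the GC trend removed the siRNA-alone value of JAK1 was 0.24, and TYK2 had -0.47 and -0.41, all still called. STAT6 fell by 0.32 under TGF-β1 (adjusted p = 0.000312), and with the GC trend removed it had -0.10 and was not called.

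All 15 inhibitors passed. With the siRNA, 6 rose and 3 fell under TGF-β1, and 5 rose and 2 fell without it, counts from which nothing is read beside the 26.3% of all genes higher and 26.8% lower, and 26.4% each way, in those comparisons. SOCS1, which blocks JAK kinases as SOCS3 does, averaged 6.07 ± 0.716 CPM in SiNAT10_TGFB against 3.67 ± 0.396 in TGFB, and 8.06 ± 1.67 in SiNAT10 against 2.89 ± 0.631 in con. Its log2 fold changes were 0.73 (SE 0.187, adjusted p = 0.00222) and 1.48 (SE 0.189, adjusted p = 6.30e-07). SOCS7 averaged 44.6 ± 1.52 CPM in SiNAT10_TGFB against 63.0 ± 2.02 in TGFB, and 38.6 ± 0.794 in SiNAT10 against 71.4 ± 4.58 in con, with -0.50 (SE 0.0689, adjusted p = 1.86e-06) and -0.89 (SE 0.0692, adjusted p = 2.37e-10). PIAS3, a protein that inhibits STAT3 in the nucleus, fell by 0.75 under TGF-β1 (SE 0.103, adjusted p = 1.53e-06) and by 0.83 without it (SE 0.104, adjusted p = 4.69e-07), on the log2 scale. SOCS5 fell with TGF-β1, by 0.48 (SE 0.0768, adjusted p = 8.88e-05) in cells with siRNA and 0.67 (SE 0.0780, adjusted p = 4.78e-07) in cells without it. SOCS1 had 1.29 under TGF-β1 with the GC trend removed.

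Of the 26 STAT3 target genes 15 passed. With the siRNA, 9 rose and 3 fell under TGF-β1, and 11 rose and 2 fell without it, with medians of 0.68 and 0.77. Over all genes 26.3% were higher and 26.8% lower under TGF-β1 (median 0.01), and 26.4% each way without it (median 0.02). With TGF-β1, 6 rose and 3 fell in cells with siRNA, and 5 rose and 5 fell in cells without it, with medians of -0.03 and 0.02, where 5.92% of all genes were higher and 5.15% lower (median 0.00), and 11.9% and 12.2% were (median -0.01). CEBPD, a transcription factor of the acute phase response, averaged 15.0 ± 2.21 CPM in SiNAT10_TGFB against 3.81 ± 1.32 in TGFB, and 16.8 ± 2.91 in SiNAT10 against 6.76 ± 0.773 in con, with log2 fold changes of 1.98 (SE 0.187, adjusted p = 5.20e-09) and 1.31 (SE 0.175, adjusted p = 1.21e-06). FOS, an AP-1 subunit, averaged 25.7 ± 1.53 CPM in SiNAT10_TGFB against 7.34 ± 1.03 in TGFB, and 26.2 ± 0.948 in SiNAT10 against 10.2 ± 1.51 in con. Its values were 1.81 (SE 0.119, adjusted p = 1.04e-11) and 1.36 (SE 0.115, adjusted p = 9.10e-10). TIMP1, which restrains matrix metalloproteases, averaged 395 ± 7.71 CPM in SiNAT10_TGFB against 186 ± 9.88 in TGFB (1.08, SE 0.0649, adjusted p = 2.21e-12). The kinase gene PIM1 fell by 1.01 under TGF-β1 (SE 0.0744, adjusted p = 7.60e-11) and by 0.84 without it (SE 0.0737, adjusted p = 1.88e-09). BCL3 fell by 0.35 under TGF-β1 (adjusted p = 0.00671) and by 0.53 without it (adjusted p = 0.000132). With the GC trend removed, BCL3 had 0.19 under TGF-β1, called as higher, and -0.02 without it, not called.

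JUNB, an AP-1 subunit, was higher under each treatment than in con, and 14.2% of its exon bases lie under HOOK2 on the opposite strand. It averaged 125 ± 8.05 CPM in SiNAT10_TGFB, 61.9 ± 6.52 in SiNAT10, 126 ± 9.59 in TGFB and 25.0 ± 1.59 in con. TGF-β1 came with 1.01 (SE 0.0805, adjusted p = 2.23e-09) in cells with siRNA and 2.33 (SE 0.0851, adjusted p = 7.36e-16) in cells without it, the siRNA alone with 1.31 (SE 0.0847, adjusted p = 9.72e-12), and the interaction was -1.32 (SE 0.115, adjusted p = 7.48e-08). VEGFA, the vascular growth factor, averaged 191 ± 9.09 CPM in SiNAT10_TGFB, 86.0 ± 10.1 in SiNAT10, 114 ± 3.08 in TGFB and 34.9 ± 1.43 in con, with an interaction of -0.57 (SE 0.103, adjusted p = 0.00161). The value on the log2(FPKM + 1) scale was -0.35 and was not called. MYC averaged 103 ± 5.83 CPM in SiNAT10_TGFB, 77.3 ± 7.80 in SiNAT10, 150.4 ± 4.34 in TGFB and 77.8 ± 3.93 in con, with an interaction of -0.54 (SE 0.101, adjusted p = 0.00211). For MYC, SiNAT10_TGFB lay below TGFB without overlap, while SiNAT10 overlapped con.

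Of the 10 genes for mRNA turnover and receptor shedding, which include factors that bind and destabilise IL6 mRNA, all passed, and 6 rose and 1 fell with the siRNA under TGF-β1 and 8 rose and 1 fell without it, against 26.3% of all genes higher and 26.8% lower under TGF-β1 and 26.4% each way without it. ZC3H12A, the ribonuclease Regnase-1 that degrades IL6 mRNA, averaged 89.3 ± 7.58 CPM in SiNAT10_TGFB against 50.4 ± 1.37 in TGFB, and 67.7 ± 7.75 in SiNAT10 against 38.8 ± 4.0 in con. Its log2 fold changes were 0.82 (SE 0.0870, adjusted p = 3.19e-08) and 0.80 (SE 0.0882, adjusted p = 6.37e-08), and 1.26 and 1.22 with the GC trend removed. ZFP36, tristetraprolin, which targets AU-rich mRNAs for decay, averaged 20.3 ± 0.861 CPM in SiNAT10_TGFB against 10.1 ± 0.308 in TGFB, and 22.5 ± 2.88 in SiNAT10 against 11.5 ± 0.723 in con (1.01, adjusted p = 3.08e-08, and 0.97, adjusted p = 4.94e-08). ELAVL1, HuR, which stabilises such mRNAs, averaged 69.1 ± 1.94 CPM in SiNAT10_TGFB against 137 ± 2.02 in TGFB, and 70.9 ± 1.98 in SiNAT10 against 145 ± 4.20 in con (-0.99, adjusted p = 1.88e-12, and -1.03, adjusted p = 9.66e-13). ARID5A, which protects IL6 mRNA, rose with TGF-β1 by 0.42 (SE 0.103, adjusted p = 0.00725) in cells with siRNA and 0.85 (SE 0.103, adjusted p = 9.12e-07) in cells without it, and the call in cells with siRNA was lost without SiNAT10 replicate 2 (0.36).

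**Figure D4:**
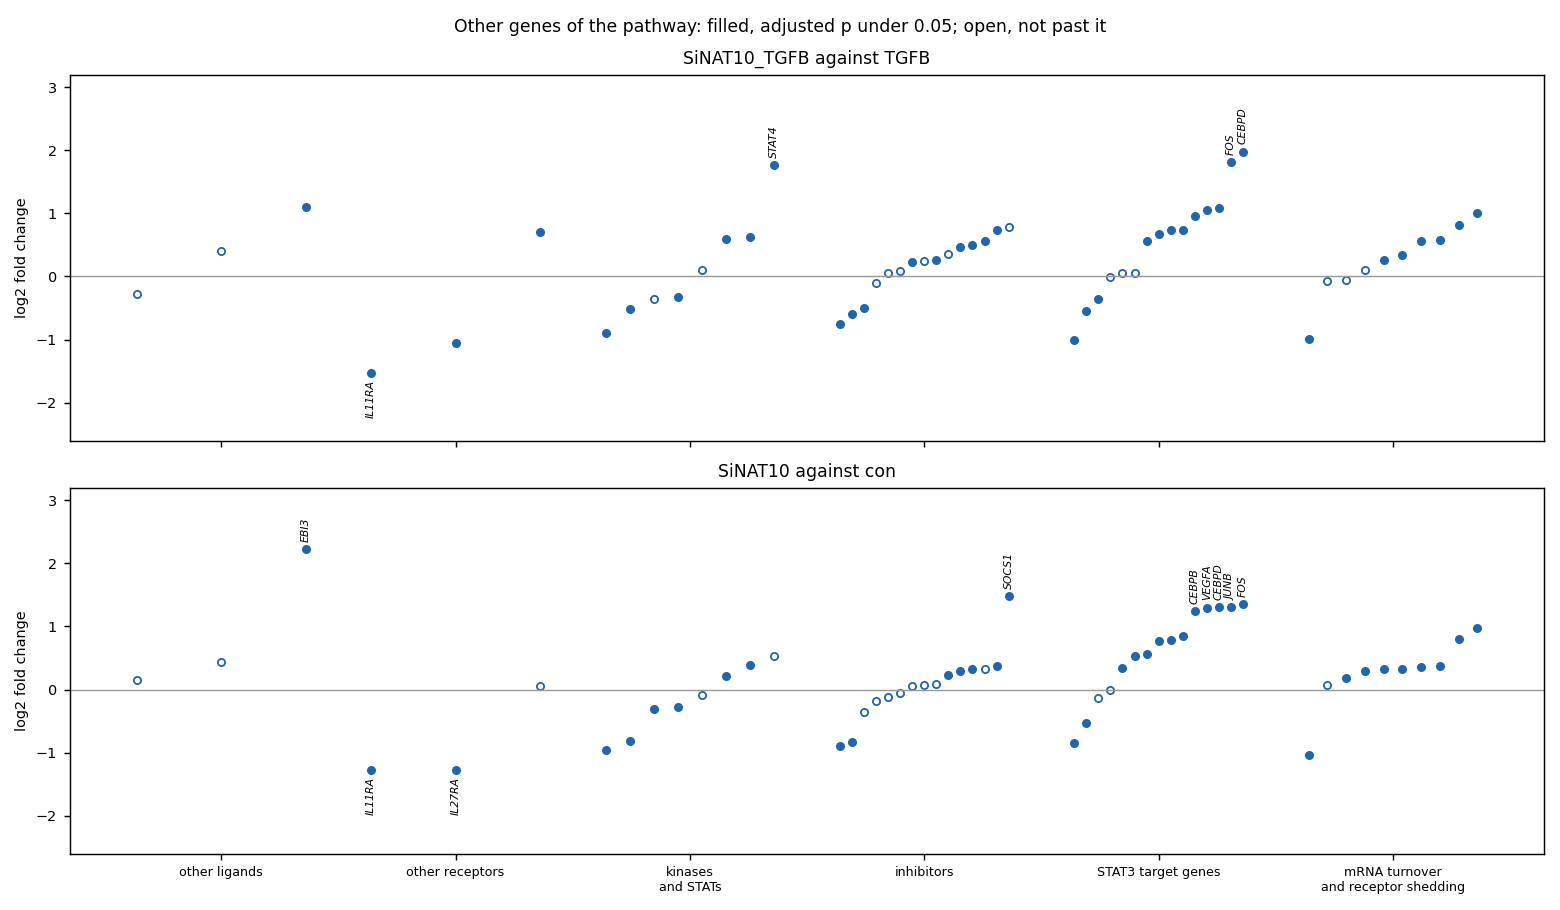
Log2 fold changes with the siRNA of the other pathway genes that passed the filter, by list, under TGF-β1 (top) and without it (bottom); each point is a gene, filled where its adjusted p was under 0.05, and genes beyond 1.2 are named. OSM and IL31, which had no counts in some libraries, are left out, as are genes not reported here; most STAT3 target genes lie above 0, and IL11RA and IL27RA lie below it.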

How the data were processed

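Gene counts and FPKM of 12 LX-2 libraries were deposited by the authors. Per the submitters' processing notes, the tools were fastp and HISAT2 2.2.1 and the build was hg38; no source used here states the counting tool, annotation or strand setting. The analysis of counts used edgeR 4.0.16 in R 4.3.3: filterByExpr defaults kept 18560 genes and 99.88 to 99.93% of counts, libraries were scaled by TMM, and a quasi-likelihood fit of 4 group means gave 4 contrasts and the interaction, and p-values were adjusted by Benjamini-Hochberg across the tested genes. SE is the absolute log2 fold change divided by the square root of F. FPKM, as deposited, served for comparisons between genes and in alternatives. A level of 3 counts was 0.0854 to 0.116 CPM before TMM scaling.

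The members and lists were chosen with earlier results of these data known. From each list, up to 3 called genes a direction with the largest change were eligible for naming, and 3 genes most like each cytokine; some of these are not reported here. Promoters came from RefSeq (GRCh38.p14). Alternatives were other scalings and filters, DESeq2 1.42.0, voom and FPKM fits in limma 3.58.1, a replicate block, removal of a GC content spline (5 degrees of freedom), 2-group fits, a threshold of 0.01 and omission of each library.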

Additional observations from a re-analysis of the deposited data

Results flagged for a closer look

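The TGF-β1 effect differed between cells with siRNA and cells without it past the threshold of the interaction test (edgeR, adjusted p under 0.05) for 3 of the 10 members and for 6 named genes of the pathway lists. Over all genes tested, 1.94% were higher and 1.91% lower for the interaction. Of the 58 pathway genes that passed the filter, 3 were higher and 4 lower. Nothing is read from these counts, since members and lists were chosen with results known. Each value below is the log2 effect of TGF-β1 with siRNA minus that without it. It was -1.92 for IL6, -1.70 for LIF and -0.52 for IL11, for which no p is given because the members were chosen with these results known. Among the STAT3 target genes it was -1.32 for JUNB (adjusted p = 7.48e-08), -0.57 for VEGFA (adjusted p = 0.00161) and -0.54 for MYC (adjusted p = 0.00211). It was 0.65 for the receptor gene IL31RA (adjusted p = 0.00216), 0.39 for the inhibitor gene SOCS7 (adjusted p = 0.0213) and 0.38 for STAT2 (adjusted p = 0.0298). The calls of SOCS7 and STAT2 were lost in several of the fits that left out 1 library.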

How the results depend on the processing

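Scaling to library size alone called 8 members in TGFB against con, in place of 5, and 6033 of all 18560 genes, in place of 4472. Removal of the GC trend called 14 pathway genes for the interaction, in place of 7, and 1441 of all genes, in place of 714. With the GC trend removed, LIFR in SiNAT10 against con turned to -0.17, and in SiNAT10_TGFB against TGFB IL11 turned to 0.19 and BCL3 to 0.19. The cause was not tested. Leaving out 1 library at a time gave 5 to 6 members called in TGFB against con, 7 to 8 in SiNAT10 against con, 7 to 8 in SiNAT10_TGFB against TGFB, 4 to 5 in SiNAT10_TGFB against SiNAT10 and 3 for the interaction in every such fit. Pathway genes called ran from 21 to 27, 39 to 42, 36 to 42, 12 to 15 and 5 to 10 in the same comparisons. Of the 19228 to 19475 genes tested in those fits, 3572 to 5008, 8740 to 9877, 8938 to 10307, 1556 to 2112 and 513 to 970 were called. Replicate numbers are shared across groups, and the deviations of same-numbered libraries from their group means had correlations from -0.34 to 0.22. No pairing by number was seen, though 3 libraries a group cannot exclude a shared culture or batch. With the replicate block 5, 8, 8, 5 and 3 members and 24, 40, 41, 14 and 6 pathway genes were called. Over all 18560 genes that block gave 4113, 9459, 9579, 1806 and 591 calls. IL6R, with 19 to 26 counts in each TGFB library, is the member least well measured at this depth.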
